A study of Mus musculus with 85 samples.

Results

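The let-7 family comprised 9 mature miRNAs of the 1977 listed in the heart miRNA table. They are mmu-let-7a-5p, mmu-let-7b-5p, mmu-let-7c-5p, mmu-let-7d-5p, mmu-let-7e-5p, mmu-let-7f-5p, mmu-let-7g-5p, mmu-let-7i-5p and mmu-miR-98-5p, written without the prefix for mouse hereafter. The members were taken by name, as the 5p arms that carry the let-7 seed, and all 9 had counts. Hearts were taken from females of the HMDP, the Hybrid Mouse Diversity Panel, which brings together inbred mouse strains of different genotypes. Every mouse was kept on chow for 8 weeks, followed by 8 weeks on food rich in fat and sucrose (HF/HS), and was 16 weeks old. There was 1 library per heart and 85 libraries in all, so the labels give 1 group, with no other diet or sex to compare it with. The hearts differ in genotype, but the strain of each mouse was not used here and no genotypes were compared. Each library is known by a library number and an animal number that rises with it.

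MiRNAs are short RNAs that guide Argonaute proteins to partly complementary sites in mRNAs, which are then repressed, and pairing of the seed, bases 2 to 8 of the miRNA, largely decides which mRNAs are bound. The let-7 miRNAs are abundant in differentiated tissues, accumulate late in development and are held low in embryonic cells by LIN28, which blocks the maturation of their precursors. The family is transcribed from many loci, several of them shared with miR-99, miR-100 and miR-125 miRNAs.

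The mature sequences are shown because they set what the members share and what separates them. In the RefSeq records of GRCm38.p6 all 9 members were found and are 22 bases long. They are written 5′ to 3′ with the seed in capitals.
let-7a-5p: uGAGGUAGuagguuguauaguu
let-7b-5p: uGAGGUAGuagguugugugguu
let-7c-5p: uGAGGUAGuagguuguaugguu
let-7d-5p: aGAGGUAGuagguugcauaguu
let-7e-5p: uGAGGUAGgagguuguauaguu
let-7f-5p: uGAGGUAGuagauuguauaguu
let-7g-5p: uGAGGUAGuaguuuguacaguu
let-7i-5p: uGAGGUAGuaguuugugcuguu
miR-98-5p: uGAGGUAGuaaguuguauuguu

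All 9 carried 1 seed, GAGGUAG, and differed only outside it. Of 1679 mature mouse miRNAs with a sequence, 11 (0.655%) held that seed. The other 2 were let-7k, with 29 counts over all hearts, and miR-1961, with 0. Counted from 1 at the 5′ end and against let-7a, the substitution was A19G in let-7c, U9G in let-7e and G12A in let-7f. With 2 substitutions each came let-7b (A17G and A19G), let-7d (U1A and U16C), let-7g (G12U and U18C) and miR-98 (G11A and A19U). The farthest was let-7i, with G12U, A17G, U18C and A19U. The closest members differ by 1 base, so a mapping that tolerates mismatches could move reads between them, and the mismatch setting is not stated in the sources used here.

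The genome holds 12 hairpins for the 9 members in the RefSeq and GENCODE M21 annotation of GRCm38. Mirlet7d (chr13:48536012-48536114), Mirlet7f-1 (chr13:48537829-48537917) and Mirlet7a-1 (chr13:48538179-48538272) lie together on the minus strand, in exons of the long non-coding RNA 6720427I07Rik. Mirlet7c-2 (chr15:85706603-85706697) and Mirlet7b (chr15:85707319-85707403) lie 621 bases apart on the plus strand, in exons of the non-coding transcript Lncppara. On the X chromosome, Mirlet7f-2 (chrX:151912346-151912428) and Mir98 (chrX:151913214-151913321) lie 785 bases apart within an intron of Huwe1, a ubiquitin ligase gene. Mirlet7g (chr9:106178840-106178927) sits in an intron of Wdr82, and Mirlet7i (chr10:122985640-122985724) overlaps an exon of the pseudogene transcript D630033A02Rik. Mirlet7e (chr17:17830352-17830444) is in an intron of Spaca6, 367 bases from Mir125a. Mirlet7c-1 (chr16:77599657-77599750) is in an intron of Mir99ahg, 656 bases from Mir99a, and Mirlet7a-2 (chr9:41536716-41536811) lies 5211 bases from Mir100. The mature let-7a, let-7c and let-7f each come from 2 hairpins, whose reads the table cannot tell apart.

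The libraries summed to between 1457 and 30202 counts (median 12248), of which the family held between 167 and 3162 (median 1215). The libraries fell into 2 sets that the labels do not name. They were found by splitting the first principal component of the 44 miRNAs that passed a filter on low counts (filterByExpr of edgeR) and are not family members. That component held 73.3% of the variance and the next 4.27%. Set B held 27 libraries, numbered 1 to 10, 15 to 18, 20 to 21 and 49 to 59, and set A the other 58, so the sets form 8 runs of library number. The sets were read from the data and are not conditions, so values between them are described without a test, and library number, animal and any step of the preparation that follows them cannot be told apart. Library 14, with 1457 counts the thinnest, lay between the sets and was placed in set A, while libraries 9 and 18 stood apart within set B in the composition of the family. The main results that rest on these libraries are given with and without them. As a check of the tissue, the 4 cardiomyocyte miRNAs miR-1a-3p, miR-133a-3p, miR-208a-3p and miR-499-5p all had counts and together held a median of 23.5% of the counts in set A and 21.1% in set B. MiR-122-5p of hepatocytes held 0.0169% and 0.0372%. Of the 2 neuron miRNAs, miR-9-5p held 0.0211% and 0.0348%, and miR-124-3p was at 0 in every library.

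The family held 10.3% of all counts pooled over the hearts (95% Wilson interval 10.2 to 10.3%). Per heart the share ran from 5.25% in library 62 to 28.8% in library 9, with a median of 8.00%. Leaving the counts of miR-1b-5p out of the totals gave a median of 10.5%. In set A it ran from 5.25 to 11.5%, with a median of 7.17% and a mean of 7.34 ± 1.12% (SD, n = 58). In set B it ran from 11.3 to 28.8%, with a median of 18.96% and a mean of 19.4 ± 4.02% (SD, n = 27). Only library 14 of set A, at 11.5% (95% Wilson interval 9.93 to 13.2%), reached the lowest library of set B, library 58 at 11.3% (10.8 to 11.8%). Without library 14 the highest share in set A was 9.68%, and without libraries 9 and 18 the highest in set B was 23.1%. The intervals cover counting error only, since the sources used here do not say if copies were removed by molecular identifiers.

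**Figure D1:**
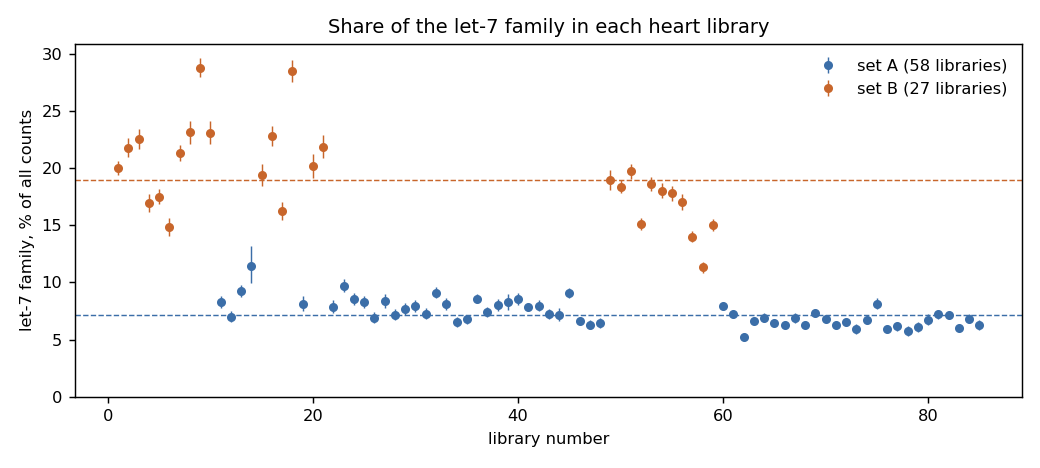
Share of the 9 let-7 members in all counts (%, y axis) of each heart library against its library number (x axis), with 95% Wilson intervals as bars, colours for the 2 sets and dashed lines at the set medians. The 27 libraries of set B sit between 11.3 and 28.8%, and the 58 of set A between 5.25 and 11.5%.

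The runs of library number repeated this step. The median share was 21.6% in libraries 1 to 10, 8.75% in 11 to 14, 21.1% in 15 to 18, 8.13% in library 19, 21.02% in 20 to 21, 7.88% in 22 to 48, 17.8% in 49 to 59 and 6.61% in 60 to 85. Thus the share was high in each of the 4 runs of set B and low in each of the 4 runs of set A, and within each set the last run was the lowest.

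The miRNAs of some other cell types had different medians in the 2 sets as well. The 4 leukocyte miRNAs summed to between 0.686 and 4.20% in set A (median 1.80%) and between 0.349 and 1.03% in set B (median 0.531%), while the 2 fibroblast miRNAs summed to between 0.384 and 1.37% (median 0.735%) and between 0.865 and 1.90% (median 1.22%). The 2 endothelial miRNAs had medians of 6.57 and 5.81%, the 2 smooth muscle miRNAs 4.01 and 4.05%, and the 3 erythroid miRNAs 0.348 and 0.342%. For each of these cell types, leukocytes and fibroblasts included, the ranges overlapped between the sets. The part of these cell types in the family's share was not tested. In whole hearts, fewer cells of a type and less RNA per cell cannot be told apart.

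Within the family, let-7f-5p held the largest share of the counts. Over the 85 hearts its share of the family ran from 23.2 to 51.4%, with a median of 42.1%. It ranked 5 by counts among all 1977 miRNAs and was the first member in 84 of the 85 libraries. Library 18 was the exception, where let-7c-5p held 26.5% of the family and let-7f-5p 23.2%.

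Next came let-7a-5p, let-7c-5p and let-7i-5p, which lay close together. Let-7a-5p held between 12.5 and 22.7% (median 16.1%), let-7c-5p between 8.49 and 26.5% (median 14.2%) and let-7i-5p between 9.77 and 19.2% (median 12.8%). The order of these 3 was not stable between hearts. Let-7a-5p exceeded let-7c-5p in 50 of 58 libraries of set A and 7 of 27 of set B, and let-7c-5p exceeded let-7i-5p in 29 of 58 and 27 of 27. The same 4 members led the family in 84 of 85 libraries and held between 80.5 and 89.1% of it together (median 85.2%). In library 18, let-7b-5p (10.7%) stood above let-7i-5p (10.3%).

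The other 5 members were less abundant. Let-7g-5p held between 4.15 and 10.4% (median 6.97%), and let-7b-5p between 2.53 and 10.7% (median 4.58%). Let-7g-5p exceeded let-7b-5p in 55 of 58 libraries of set A and 17 of 27 of set B. Let-7d-5p held between 0.712 and 2.93% (median 1.64%) and exceeded let-7e-5p in all 85 libraries. Let-7e-5p, at 0 to 1.16% (median 0.660%), and miR-98-5p, at 0 to 0.949% (median 0.464%), rested on medians of 7 and 6 counts per library and fell below the low-count filter. Library 14 had none of either, and a count of 0 there allows up to 3 of its 167 family counts. Let-7e-5p exceeded miR-98-5p in 28 of 58 libraries of set A and 26 of 27 of set B, so in set A their order was not resolved.

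Pooled over all hearts, with 95% Wilson intervals, the shares were 39.9% (39.6 to 40.2%) for let-7f-5p, 16.5% (16.3 to 16.8%) for let-7a-5p, 15.8% (15.6 to 16.0%) for let-7c-5p and 12.6% (12.4 to 12.8%) for let-7i-5p. They were 6.83% (6.68 to 6.97%) for let-7g-5p, 5.40% (5.27 to 5.53%) for let-7b-5p and 1.82% (1.75 to 1.90%) for let-7d-5p. Let-7e-5p had 0.709% (0.663 to 0.759%) and miR-98-5p 0.465% (0.428 to 0.506%). These are shares of counts of mature RNAs of equal length, and how well each sequence was captured by the kit was not measured here.

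**Figure D2:**
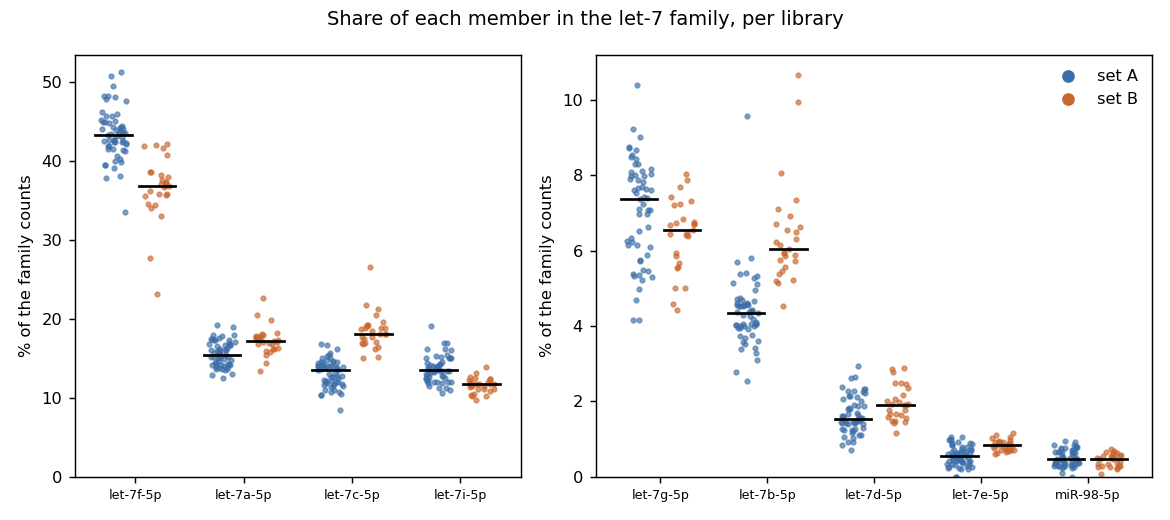
Share of each member in the counts of the family (%, y axis), 1 point per heart library, with set A and set B side by side and black bars at the medians. The 4 abundant members are on the left and the 5 others on the right, each with its own scale. Let-7f-5p had medians of 43.4% (set A) and 36.9% (set B), and let-7c-5p of 13.5 and 18.2%.

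All 9 members had a higher median CPM (counts scaled to the library total) in set B than in set A. Let-7c-5p went from a median of 9354 CPM (4454 to 19218) to 35075 CPM (17227 to 75646), 3.75 times, and overlapped between the sets only in that 26 of the 27 libraries of set B lay above all of set A. Let-7f-5p went from 31478 CPM (24103 to 41046) to 71131 CPM (43760 to 91834), 2.26 times, with no overlap. Let-7e-5p, one of the least abundant members, went from 377 to 1550 CPM, 4.11 times, and miR-98-5p from 349 to 854 CPM, 2.45 times. The others were let-7b-5p with 3.62, let-7d-5p with 2.99, let-7a-5p with 2.95, let-7g-5p with 2.47 and let-7i-5p with 2.38 times.

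Among the 51 miRNAs past the filter the median fold between the sets was 1.37, with 30 above 1, and let-7c-5p had the highest. The libraries of set B lay wholly above those of set A for 3 of these 51 miRNAs (5.88%), and all 3, let-7a-5p, let-7f-5p and let-7g-5p, were members. They lay wholly below for another 3 of the 51, none of them members. Let-7e-5p, outside the 51, did not overlap either. The highest set A values of let-7b-5p, let-7c-5p and let-7i-5p were those of the thin library 14, where let-7c-5p had 28 counts and let-7i-5p 32. All other libraries of set A lay below set B for these members. The count over the 51 miRNAs without library 14 was not taken. On the log2 scale, with TMM scaling (edgeR's trimmed mean of M values), the members' difference of B minus A ran from 0.71 for miR-98-5p to 1.61 for let-7b-5p (median 1.24), against a median of 0.15 over the 51. The members' median was 1.18 with DESeq2's size factors and 1.52 without TMM, where the median over the 51 was 0.09 and 0.42, so every scaling gave the same direction.

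The difference between the sets was unequal across members, so the composition of the family differed too. The share of the family was higher in set B by its median for let-7e-5p (1.53 times), let-7b-5p (1.39 times), let-7c-5p (1.34 times), let-7d-5p (1.23 times) and let-7a-5p (1.11 times). It was lower for miR-98-5p (0.980 times), let-7g-5p (0.887 times), let-7i-5p (0.869 times) and let-7f-5p (0.850 times). Without libraries 9 and 18 the median share of miR-98-5p in set B was 0.493%, above the 0.469% of set A. No single member's share separated the sets, since the ranges overlapped for all 9.

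After these values were seen, the sequences were compared with the direction of these differences, which chose the grouping and gives it no test. With all libraries, the 5 members whose median share was higher in set B are the 5 with GG at bases 11 and 12, in capitals here. The 4 whose median share was lower have another pair of bases there.
let-7a-5p: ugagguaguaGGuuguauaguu
let-7b-5p: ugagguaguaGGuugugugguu
let-7c-5p: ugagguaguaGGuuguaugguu
let-7d-5p: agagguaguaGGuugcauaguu
let-7e-5p: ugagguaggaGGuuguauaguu
let-7f-5p: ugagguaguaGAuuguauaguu
let-7g-5p: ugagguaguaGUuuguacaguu
let-7i-5p: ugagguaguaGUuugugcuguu
miR-98-5p: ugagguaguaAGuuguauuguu

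GG at these bases, read on the mature strand, was found in 174 of 1679 mature mouse miRNAs (10.4%). None of the 34 other miRNAs past the filter whose sequence was matched had it, so the grouping could not be compared outside the family. The match is a description of these letters and says nothing of a cause.

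Together the 5 members let-7a to let-7e held between 28.96 and 41.9% of the family in set A (median 34.8%, SD 2.94, n = 58) and between 37.2 and 61.6% in set B (median 44.3%, SD 5.06, n = 27). The top of set B was set by library 18 at 61.6% and library 9 at 57.4%. Without these 2, set B ran from 37.2 to 48.3% with the median at 44.3%, and its lower part still overlapped with set A. Within the sets, log2 of the family's share of all counts was set against log2 of these 5 members over the other 4. This gave r = 0.533 and rho = 0.471 for set A, and r = 0.632 and rho = 0.551 for set B. These are descriptions without a p, since the grouping came from the same data. Both quantities are also built from the same member counts, so they are not independent of each other. Set B without libraries 9 and 18 gave r = 0.357, and set A without library 14 gave r = 0.473.

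**Figure D3:**
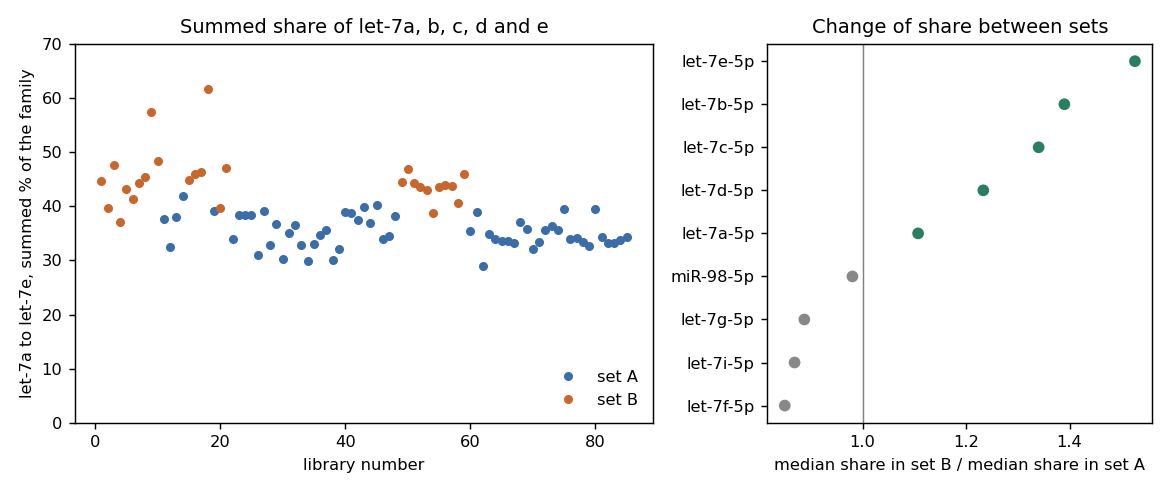
Left, the summed share of let-7a, b, c, d and e in the family (%, y axis) by library number, coloured by set, with libraries 9 and 18 at 57.4 and 61.6%. Right, the median share in set B divided by that in set A for each member, with all libraries. The 5 members let-7a to let-7e are in green between 1.11 and 1.53 and the other 4 in grey between 0.850 and 0.980.

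How far the composition varied from heart to heart was read against counting error, for which the chi-square of the members' counts is about 1 per degree of freedom. Over all 85 libraries it was 4.82 per degree of freedom, within set A it was 1.81 and within set B 4.61. The value of set B rested largely on 2 libraries, as it was 3.23 without library 18 and 2.03 without libraries 18 and 9. The measure grows with the counts per library, and the family had a median of 952.5 counts in set A and 2101 in set B. The values of the 2 sets are therefore not at equal depth and do not rank their evenness. Over all 51 miRNAs past the filter the same measure was 32.7, and 8.42 within set A and 13.4 within set B. The family thus varied more than counting alone gives, and by less per degree of freedom than the whole set of miRNAs, whose counts are larger.

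Libraries 9 and 18 departed in the same members. Library 18 had 20.5% let-7a-5p, 10.7% let-7b-5p, 26.5% let-7c-5p and 23.2% let-7f-5p. Library 9 had 22.7% let-7a-5p, 9.93% let-7b-5p, 21.3% let-7c-5p and 27.7% let-7f-5p. Both had the highest family shares of all counts as well, 28.5% for library 18 and 28.8% for library 9. Their totals, 8553 and 10989 counts, lay within the range of set B. In set A the libraries that added most to the chi-square were 45 and 30, and without both it was 1.74 per degree of freedom. This ranking favours libraries with more counts. Library 14, with 167 family counts, had the lowest share of let-7f-5p in set A (33.5%). Its shares of let-7b-5p (9.58%) and let-7i-5p (19.2%) were the highest of set A.

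For each member, the SD between hearts of the log2 ratio of its counts to the rest of the family was set beside the SD that counting error alone would give. In set A the observed SD was 0.19 for let-7f-5p (0.10 from counting), 0.17 for let-7a-5p (0.14), 0.22 for let-7c-5p (0.14) and 0.20 for let-7i-5p (0.14). Let-7g-5p stood higher, with 0.31 (0.20). In set B the observed SD was 0.27 for let-7f-5p (0.07 from counting), 0.29 for let-7b-5p (0.14) and 0.13 for let-7i-5p (0.10), the steadiest of the 9. Without libraries 9 and 18 it was 0.16 for let-7f-5p, 0.19 for let-7b-5p and 0.12 for let-7i-5p. For let-7e-5p the observed SD did not exceed counting error in either set, at 0.71 (0.73) and 0.23 (0.36), and for miR-98-5p it did not in set A, at 0.57 (0.71). At this depth variation of their ratio to the rest of the family was not detectable there, though without library 14 let-7e-5p in set A had 0.71 against 0.68 from counting. In set B, miR-98-5p had 0.67 (0.53). These values concern the ratio alone, since the log2 CPM of let-7e-5p had an SD of 0.46 in set B. The ratio of let-7e-5p in set B varied well below its counting value, also without libraries 9 and 18 (0.22 against 0.37). That counting value is thus not a close guide for this member there.

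**Figure D4:**
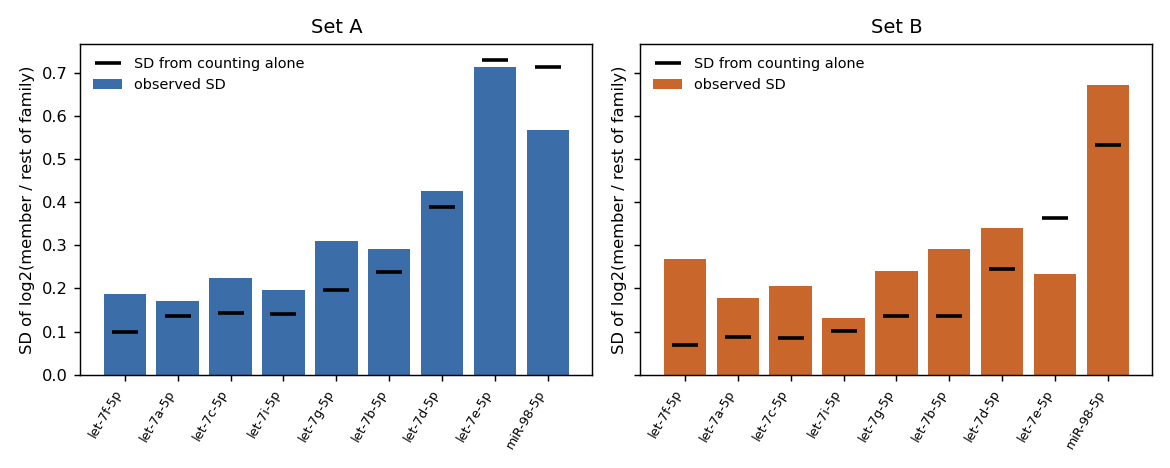
Observed SD between heart libraries of log2 of a member's counts over the rest of the family (bars, y axis starts at 0) and the SD that counting error alone gives (black marks), for each member in set A (left) and set B (right). In set B the bar of let-7f-5p reaches 0.27 against a mark at 0.07, while the bars of let-7e-5p lie below their marks in both sets.

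Between pairs of members, some ratios were steadier than others. In set B the ratio of let-7a-5p to let-7c-5p had an SD of 0.16 on the log2 scale, against 0.11 from counting, and ran from 0.745 to 1.14. That of let-7f-5p to let-7i-5p had 0.16 (0.11 from counting) and ran from 2.26 to 4.01, and that of let-7b-5p to let-7c-5p 0.17 (0.15). Without libraries 9 and 18 these SDs were 0.15, 0.13 and 0.14. In set A the ratio of let-7a-5p to let-7f-5p had an SD of 0.21 against 0.15 from counting and a range from 0.258 to 0.501, and that of let-7f-5p to let-7i-5p had 0.22, or 0.19 without library 14.

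The members' levels fell along the library numbers. In edgeR's quasi-likelihood test over the 51 miRNAs, with Benjamini-Hochberg adjustment, 7 of the 7 members tested had a negative slope with an adjusted p under the threshold of 0.05, against 45.1% of all 51 miRNAs that fell. Per 10 libraries, on the log2 scale, the slope was -0.23 ± 0.033 (SE) for let-7b-5p (adjusted p = 4.8e-09), -0.21 ± 0.030 for let-7c-5p, -0.18 ± 0.032 for let-7d-5p and -0.16 ± 0.025 for let-7a-5p. It was -0.12 ± 0.016 for let-7f-5p, -0.11 ± 0.018 for let-7i-5p and -0.089 ± 0.021 for let-7g-5p (adjusted p = 8.23e-05). Set B holds most of the low library numbers, so the slopes over all libraries carry the step between the sets.

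Within the sets the slopes were smaller. In set A, 4 of 7 members fell, against 23.5% of the 51 miRNAs, with slopes of -0.098 for let-7d-5p, -0.049 for let-7c-5p, -0.048 for let-7b-5p and -0.035 for let-7f-5p. The slope of let-7g-5p in set A was 0.017 ± 0.015 (edgeR adjusted p = 0.338), the opposite sign. In set B, 5 of 7 fell, against 17.6% of the 51, namely let-7b-5p (-0.13), let-7c-5p (-0.11), let-7a-5p (-0.095), let-7i-5p (-0.076) and let-7f-5p (-0.073). With the set as a covariate, 6 of 7 fell, against 37.3% of the 51, and let-7g-5p had a slope of -0.0054 (edgeR adjusted p = 0.746). Without libraries 9 and 18 it was 7 of 7 over all libraries, against 45.1% of the 51, and 5 of 7 in set B, against 19.6%. Let-7d-5p, which fell in set A, had a slope of -0.020 in set B (edgeR adjusted p = 0.700) and 0.020 there without libraries 9 and 18.

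The family's share was also lower in deeper libraries. The log2 of this share against the log2 total gave r = -0.510 in set A (permutation p = 0.0001, rho = -0.397, p = 0.00218, n = 58). In set B it gave r = -0.489 (permutation p = 0.00948, rho = -0.516, p = 0.00607, n = 27). The adjusted permutation p was 0.0002 and 0.00948 over these 2 relations. Leaving out the 2 libraries of most extreme total gave r = -0.319 (permutation p = 0.0166) for set A and r = -0.469 (permutation p = 0.0177) for set B, and leaving out library 14 alone gave r = -0.345 for set A. The total includes the family itself. With the log2 total as a covariate, 7 of 7 members still fell with library number in edgeR's test, against 41.2% of the 51 miRNAs.

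Whether members rose and fell together from heart to heart was asked within each set, because the step between the sets would join all of them. Pearson's r was taken on log2 CPM with two-sided permutation tests of 100000 resamples, adjusted over all 1485 pairs among the miRNAs past the filter, the 2 other members and the listed neighbours. In set A, 10 of 36 member pairs were called, all with r above 0, against 8.62% of the 1485 pairs. The median r of the member pairs was 0.108 and the range -0.322 to 0.642. Without TMM, 17 member pairs were called there, against 297 of the 1485 (20%). By biweight midcorrelation 8 were called in set A, against 6.13%. Given the log2 total and library number, by partial correlation, 7 were called in set A, against 4.51%. Without library 14, 8 member pairs were called, against 6.2% of the 1485, with a median r of 0.201 and a range of -0.271 to 0.564. In set B, 27 of 36 were called, all above 0, against 17.6% of the 1485 pairs, with a median of 0.734 and a range of 0.0512 to 0.953. By the same partial correlation 26 were called in set B, against 18.5%. The CPM of pairs within a library share its scaling, and the difference between the sets was not tested.

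Let-7b-5p and let-7c-5p, which share the chr15 locus, were the most alike in both sets, with r = 0.642 (rho = 0.599, adjusted permutation p = 0.000424) in set A and r = 0.953 (rho = 0.935, adjusted permutation p = 0.000371) in set B. Leaving out the 2 libraries with the most extreme let-7b-5p gave r = 0.553 and 0.932. The pair differs by 1 base, so reads of one could be assigned to the other. Let-7a-5p and let-7c-5p, which lie at separate loci, came next in both sets, with r = 0.573 and 0.945. They too differ by 1 base, so the same limit on the assignment of reads holds for them.

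Of the chr13 members, let-7a-5p and let-7f-5p had r = 0.476 in set A and r = 0.736 in set B. For let-7a-5p with let-7d-5p it was 0.419 and 0.782, and for let-7d-5p with let-7f-5p 0.218 and 0.419. The first 2 pairs were called in both sets and the last in neither (adjusted permutation p = 0.263 and 0.0863). Let-7f-5p and miR-98-5p, side by side on the X chromosome, had r = 0.104 and 0.442 and were called in neither (adjusted permutation p = 0.643 and 0.0675). Pairs that share a locus were thus found among both the highest and the lower values of r. Let-7a, let-7c and let-7f each have another hairpin elsewhere, and let-7a-5p and let-7f-5p differ by 1 base.

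In set A let-7g-5p was called with none of the other 8 members, its median r was 0.0298 and its lowest r was -0.269, with let-7f-5p. In set B it was called with 7 of 8, with a median r of 0.716 and its highest r, 0.791, with let-7e-5p. MiR-98-5p was called with no member in either set, with a median r of -0.103 and 0.246, on a median of 5 and 9 counts per library. Let-7e-5p, with medians of 5.5 and 18 counts, was called with none in set A and with 7 in set B. When the 2 libraries most extreme in 1 member of a pair were left out, the permutation p stayed under 0.05 for 8 of the 10 pairs in set A, the exceptions being let-7i-5p with let-7b-5p (r = 0.175) and with let-7c-5p (r = 0.241), and for 27 of the 27 in set B. With libraries 9 and 18 left out, 26 member pairs were called in set B, against 10.2% of the 1485 pairs.

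**Figure D5:**
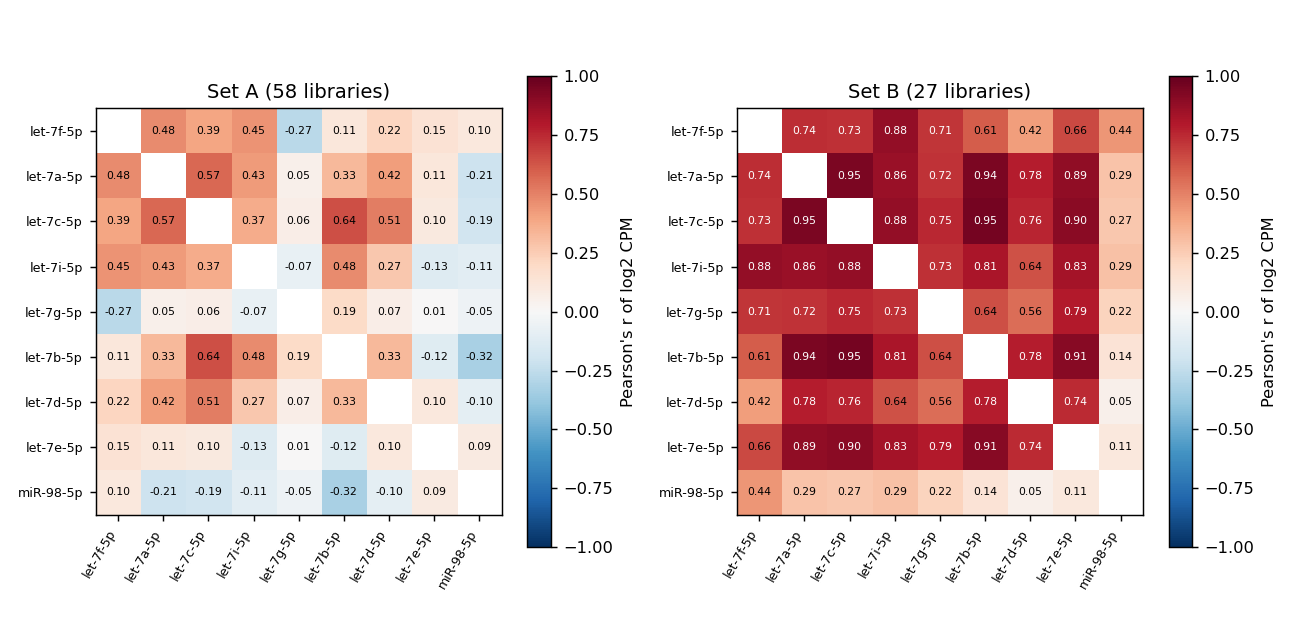
Pearson's r of log2 CPM between each pair of members, in the 58 libraries of set A (left) and the 27 of set B (right), with colours from -1 (blue) to 1 (red) and r printed in each cell. Members are ordered by their median share. In set A r runs from -0.322 to 0.642, and in set B from 0.0512 to 0.953, with miR-98-5p the palest row.

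The listed neighbours outside the family are miR-99a, miR-99b and miR-100, which form a seed family of their own, and miR-125a and miR-125b, homologues of the worm miRNA lin-4. They were listed from knowledge of the clusters. In the annotation used here Mir125b-1 lies 45114 bases from Mirlet7a-2, and the distances of the miR-99b hairpin to Mirlet7e and of the other miR-125b hairpin to Mirlet7c-1 were not computed. Of 6 pairs of a member with a neighbour, 1 was called in set A, against 8.62% of the 1485 pairs with r above 0, let-7a-5p with miR-125b-5p (r = 0.392, adjusted permutation p = 0.0197). Let-7c-5p with miR-125b-5p had r = 0.338 there (adjusted permutation p = 0.0504). With DESeq2's size factors 0 of the 6 were called in set A by permutation test, with 2 at an unadjusted p under 0.05 and 9.02% of the 1485 pairs called above 0. Given the log2 total and library number, by partial correlation, 0 of the 6 were called in set A (1 unadjusted, 4.51% of the 1485) and 5 in set B (18.5%). In set A 2 were called without TMM (20%) and 2 by biweight midcorrelation (6.13%). In set B, 4 of 6 were called, against 17.6% of the 1485 pairs, let-7c-5p with miR-125b-5p (r = 0.874), let-7a-5p with miR-125b-5p (r = 0.855), let-7e-5p with miR-125a-5p (r = 0.816) and let-7e-5p with miR-99b-5p (r = 0.562). The pairs of let-7c-5p with miR-99a-5p, 656 bases away, and of let-7a-5p with miR-100-5p were called in neither set, with r = 0.145 and -0.124 for set A, and 0.0576 and 0.260 for set B. Without libraries 9 and 18, 3 of the 6 were called in set B, against 10.2%.

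Among the 44 other miRNAs past the filter, the 3 whose log2 CPM was most like that of the summed family, by the mean of r over both sets, were miR-125a-5p (set A r = 0.554, set B r = 0.835), miR-125b-5p (0.497 and 0.828) and miR-133a-3p (0.259 and 0.783). The least alike was miR-30e-5p (-0.531 and -0.505).

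The other arm of the let-7 hairpins held few counts. The 3p rows of the members held 444 counts over all hearts beside 117326 of the 5p members, 0.377% (95% Wilson interval 0.344 to 0.414%) of both. Let-7c-2-3p had 158 counts, and its sequence is the same as that of let-7a-1-3p, which has no row of its own, so its counts may come from either hairpin. Let-7i-3p had 128 counts, 0.859% of its hairpin's counts, and let-7d-3p 77, or 3.48% (2.79 to 4.33%), the highest of the members with 1 hairpin. Let-7g-3p had 6 counts (0.0749%), let-7b-3p 9 (0.142%), let-7e-3p 3 (0.359%) and miR-98-3p 8 (1.44%). Let-7f-1-3p had 16, let-7f-2-3p 31, let-7c-1-3p 8 and let-7a-2-3p 0. Let-7j, whose seed differs at its last base, had 82 counts and let-7k, which has the family's seed, 29.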

How the data were processed

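Total RNA from 85 hearts was extracted with miRNeasy, made into libraries with the QIAseq miRNA kit and sequenced as 50-base single reads. The authors mapped reads with HISAT2 2.0.6 and counted them with HTSeq 0.13.5 on mm10, per the submitters' processing notes. The table as deposited holds raw counts, 1 row per mature miRNA. The annotation, trimming, strand, treatment of multiply mapped reads and molecular identifiers are not given in the sources used here. Counts were scaled by TMM in edgeR 4.0.16 (R 4.3.3), and filterByExpr (minimum count 10, minimum total 15) kept 51 of 548 miRNAs with counts, which held 95.7% of all counts. A prior count of 2 entered log2 CPM. SEs of slopes are the slope over the square root of the F statistic. Log ratios used an offset of 0.5. Permutations used numpy 2.4.6, and adjustment of correlations ran over all 1485 pairs rather than, as planned, over the member pairs alone. Figures used matplotlib 3.10.9, and tables pandas 2.3.3, scipy 1.17.1 and Python 3.11.15. DESeq2 1.42.0 served as an alternative. The scripts were tested on simulated data. With 200 miRNAs changed, the trend test called 24 of 24 changed and 4 of 28 unchanged miRNAs past the filter. With 10 changed, it called 9 of 9 changed and 2 of 45 unchanged. Members, lists and tests were chosen with earlier results of these data known. The named miRNAs are the members, other let-7 and miR-98 rows, the neighbours and the 3 miRNAs most like the family. MiR-30e-5p was named after its value was seen, as was the grouping by bases 11 and 12. The title of the dataset gives 85 strains, as many as libraries, and the study's text a smaller number. The strain of each heart was not used here, so p-values measure the spread between hearts, most or all of which differ in strain.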

Additional observations from a re-analysis of the deposited data

How the results depend on the processing

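The family's median share of 8.00% became 18.96% in set B alone. It stayed within 1 SD of the libraries with pooled counts, with libraries of at least 3000 counts and in set A alone. The same held without libraries 9 and 18, and without miR-1b-5p, which lies opposite miR-1a. Without the miR-1b-5p row it was 10.5%, and the SD of 6.13 percentage points includes the step between the sets. The chi-square per degree of freedom of 4.82 became 1.81 within set A and 2.03 within set B without libraries 9 and 18. The count of members that fell with library number, 7, became 4 within set A, and the slope of let-7g-5p was 0.017 there and that of let-7d-5p 0.020 in set B without libraries 9 and 18, both of the opposite sign. Without TMM, 17 member pairs were called in set A in place of 10, while the share of all 1485 pairs called with r above 0 went from 8.62 to 20%. Of the pairs with neighbours in set A, 0 were called by permutation test with DESeq2's size factors (2 had an unadjusted p under 0.05), 0 by partial correlation given the log2 total and library number (1 unadjusted), 2 without TMM and 2 by biweight midcorrelation, in place of 1. The causes were not tested. In these comparisons 35 values, the family shares named above among them, counted as unchanged. That meant within 1 SD for the family's share, and within 1.5 times of the value reported for the counts and chi-square values. Leaving out libraries 9 and 18, and partial correlation for the neighbours, were added after the data were seen. Set B has no library under 3000 counts, so that alternative was not run there. No paired analysis was possible because all libraries belong to 1 group. Depth limits let-7e-5p and miR-98-5p, with medians of 7 and 6 counts per library.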
